A study of Mus musculus with 4 samples.

Results

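The Hedgehog pathway genes Shh, Ptch1, Smo, Gli1, Gli2, Gli3, Hhip and Sufu were examined in mouse bulge hair follicle stem cells (HF-SCs). They were taken by symbol from the authors' deposited RNA-seq table, and all 8 listed members had a mean normalised read count above 0, out of 17044 such genes among 24421 rows. HF-SCs were purified from adult back skin by cell sorting as live cells high for the nuclear reporter H2BGFP, integrin α6 and CD34 and negative for Sca1. The labels give 2 control and 2 miR-205 inducible libraries, all from C57BL/6 mice at postnatal day 44 that carry a Krt14-H2b-GFP allele, a fluorescent histone driven in keratin 14 cells. The inducible mice carry a miR-205 transgene behind a tetracycline-responsive promoter, switched on by a Krt14-driven transactivator when doxycycline is fed, here for 2 d. The transgene founders were FVB mice, so strain background around the transgene can differ from C57BL/6. The labels describe the control mice as untreated, whereas the methods have both groups fed doxycycline, and nothing read here names further alleles of the controls or says whether animals were pooled.

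The measurement used is the authors' mean over all 4 libraries of read counts divided by library size factors. The other columns hold the authors' own comparison of induced with control cells and were not used, so no difference between induced and control cells is reported. Every mean is written to about 15 digits and is a sum of whole reads, each worth a fixed amount in its library, so the reads of each library can be worked back from it. Of 15815 genes with a mean up to 1900, 15549 (98.3%) were worked back. Of these, 15185 had only 1 possible set of reads and the others only 1 set that kept the libraries within 8.09-fold. With a mean over 1000, where Smo, Gli1, Gli2 and Gli3 lie, 982 of 1224 genes (80.2%) were worked back. In that range 595 genes had several possible sets, Gli1 and Gli2 among them. The libraries are named A, B, C and D here, from the deepest to the shallowest, with size factors of 1.24, 1.18, 0.966 and 0.716. A to D could not be matched to control or induced, and each value below is that of an unlabelled library. Each of the 6 pairs of libraries differed by more than counting error, with a variance 4.48 to 8.86 times it in genes with a mean of 100 or more. The widest pairs were A against B (8.86) and A against C (8.44), and the rest lay between 4.48 and 4.83. Multiples of counting error are given here and below as ratios of variances, not of standard deviations. The intervals given are exact 95% Poisson intervals, which cover counting error only.

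Hedgehog signalling starts when a secreted ligand such as Sonic hedgehog binds the receptor Patched, which lifts Patched's brake on Smoothened, and Smoothened then signals at the primary cilium to the GLI transcription factors. Without ligand, Sufu holds the GLI proteins in check and GLI3 is cut into a repressor. Gli1, Ptch1 and Hhip are themselves switched on by the pathway, and their transcripts are commonly read as its output. In skin, Shh made by hair progenitors drives follicle growth, and Gli1 marks cells of the upper bulge that lie near sensory nerves.

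The sorted samples held abundant transcripts of Smo and the GLI genes, fewer of the receptor Ptch1 and almost none of the ligand Shh. Smo, Gli1, Gli2 and Gli3 each had a mean normalised read count over 1000, above that of 88.1% or more of the genes with reads. Ptch1 and Sufu lay lower, at 425 and 339, Hhip at 70.2 and Shh at 1.62. Over the 8 members the median was 811, against 117 for all 17044 genes. These counts are not corrected for gene length. Per kb of exon, Smo, Gli1 and Gli2 stood above 86.2% or more of the genes with reads and a gene model. Gli3 stood above 74.0%, Ptch1 above 59.2%, Sufu above 53.6%, Hhip above 35.9% and Shh above 10.8%.

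**Figure D1:**
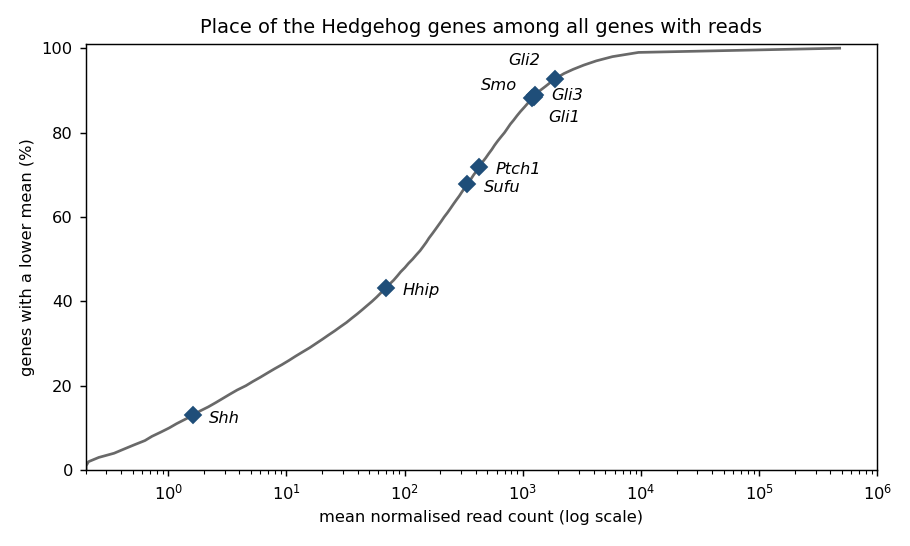
Mean normalised read count of each gene (horizontal axis, log scale) against the percentage of the 17044 genes with reads that have a lower mean (vertical axis), with the 8 Hedgehog genes as diamonds on the grey curve of all genes. Gli2 stands at 92.7% and Shh at 12.99%.

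Shh, the ligand, had 7 reads in all. Libraries A and D held 0 reads of Shh, library B held 4 and library C held 3. A count of 0 allows a normalised count of up to 2.43 in A and 4.19 in D, taking 3 reads as the limit, or 2.98 and 5.15 by the upper end of the exact interval. The exact intervals of all 4 libraries overlapped, and no difference was detectable at this depth. Its gene lies on NCBIM37 at chr5:28783355-28793641.

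Ptch1, the receptor that restrains Smoothened, had 505, 578, 360 and 306 reads in libraries A, B, C and D. The normalised read counts were 408 in A, 490.3 in B, 373 in C and 427 in D. B was highest and C lowest, 1.32-fold apart, and the interval of B (451 to 532) lay above those of A and C but overlapped that of D. A ratio at least this wide was seen in 33.7% of the 2051 recovered genes with a mean of 300 to 600. Ptch1 lies at chr13:63610261-63674474 (NCBIM37).

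Hhip, a surface protein that binds Hedgehog ligands and keeps them from Patched, had 78, 102, 58 and 51 reads in A, B, C and D. Its normalised read counts were 63.1, 86.5, 60.0 and 71.2, highest in B and lowest in C, and the intervals of all 4 libraries overlapped. Hhip and Ptch1 kept a similar ratio, with 0.154 to 0.176 reads of Hhip for each read of Ptch1 in the 4 libraries. The ratio of Gli1 to Ptch1 reads was not as steady, at 1.95 in A, 3.23 in B, 3.67 in C and 2.43 in D. The gene lies at chr8:82490014-82581905 (NCBIM37).

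Smo, the signal transducer, had 1476 reads in A, 1575 in B, 1228 in C and 825 in D. After division by the size factors these were 1194, 1336, 1271 and 1152, so that B, the highest, was 1.16-fold above D, the lowest. Only B stood apart, from A and from D, beyond the counting intervals. Smo lies at chr6:29685694-29711365 (NCBIM37).

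Sufu, the intracellular inhibitor that binds GLI proteins, was the steadiest member. Its reads were 397, 423, 337 and 235, and its normalised counts 321 in A, 359 in B, 349 in C and 328 in D. No pair of libraries stood apart, and the variance over the 4 libraries was 1.019 times that of counting error alone. The ratio of Smo to Sufu reads stayed between 3.51 and 3.72. Sufu lies at chr19:46471386-46563294 (NCBIM37).

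Of the 3 GLI transcription factors, Gli1, which acts as an activator and is a target of the pathway, varied most. Gli1 had 985 reads in A, 1868 in B, 1321 in C and 745 in D. The normalised read counts were 797 in A, 1585 in B, 1367 in C and 1040 in D. B was highest and A lowest, 1.99-fold apart, and none of the 6 pairs of libraries had overlapping intervals. The variance over the 4 libraries was 117 times that of counting error. Of the 982 recovered genes with a mean of 1000 to 1900, 2.65% had a ratio of highest to lowest library as wide, where the median ratio was 1.22. The mean of Gli1 can also be written as 3084, 506, 1782 and 15 reads, but this set would put 2 libraries 119-fold apart and was not taken. Gli1 lies at chr10:126766945-126778645 (NCBIM37).

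Gli2, the main activator downstream of Smoothened, was the most abundant member by normalised count. Its reads were 2176 in A, 2368 in B, 1860 in C and 1247 in D. The normalised counts were 1759.65, 2009, 1925 and 1741, a range of 1.15-fold, with B apart from A and D and C apart from A. Other sets of reads fit this mean too, with libraries at least 11.1-fold apart, and were not taken. Gli2 lies at chr1:120730709-120950196 (NCBIM37).

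Gli3, which mostly acts as a repressor, ran in another order. Its reads were 1684 in A, 1363 in B, 1073 in C and 1068 in D, and its normalised counts 1362, 1156, 1110.4 and 1491. A and D were the high libraries of Gli3 and B and C the low ones, and all 4 intervals of a high against a low library stayed apart. For Gli1 the same libraries B and C were the high ones. Per read of Gli3 there were thus 0.585 reads of Gli1 in A and 0.698 in D, against 1.37 in B and 1.23 in C. The split of A and D from B and C was drawn from these values, and its share over all genes was not counted. The intervals cover counting error only, which every pair of libraries exceeded over genes at large, so intervals apart do not set Gli1 or Gli3 off from other genes. A range as wide as the 1.34-fold of Gli3 was seen in 26.9% of the 982 recovered genes with a mean of 1000 to 1900. Gli3 lies at chr13:15555068-15821859 (NCBIM37).

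**Figure D2:**
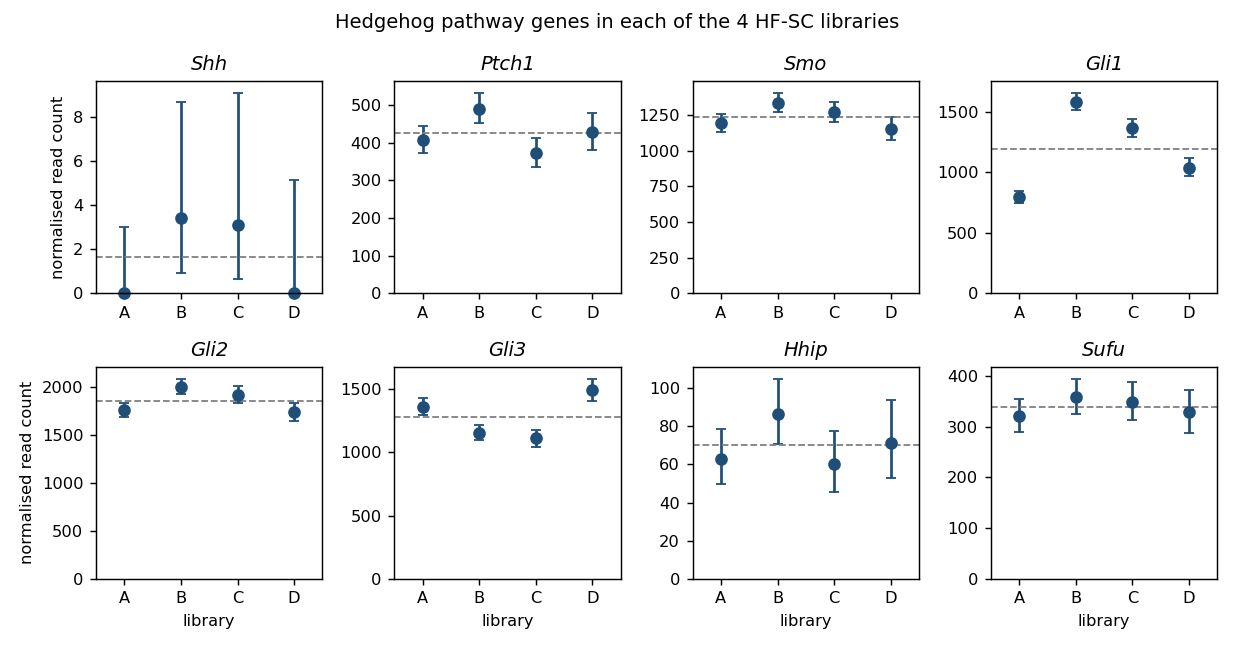
Normalised read count (vertical axes, from 0) of each Hedgehog gene in libraries A to D, as points with exact 95% Poisson intervals, and the authors' mean as a dashed line. Gli1 runs from 797 in A to 1585 in B with no overlap, whereas the intervals of Sufu and of Hhip overlap in all 4 libraries.

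The width of Gli1 is seen against genes of like level in the plot of highest over lowest library. Of the other members, Gli3 had a ratio of 1.34, as wide as that of 26.9% of the 982 genes, and Smo and Gli2 were narrower than the median. The ratio of Sufu was 1.12, and 88.1% of 2051 genes with a mean of 300 to 600 were as wide. Library B was the highest in 6 of the 7 members with a mean of 50 or more, the exception being Gli3, and in 26.0% of 8847 recovered genes with such a mean. This counts the order alone. Only for Gli1 did the interval of B stand apart from those of A, C and D, and for Sufu and Hhip no pair of libraries stood apart. The members share these libraries, so the 6 are not independent observations.

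**Figure D3:**
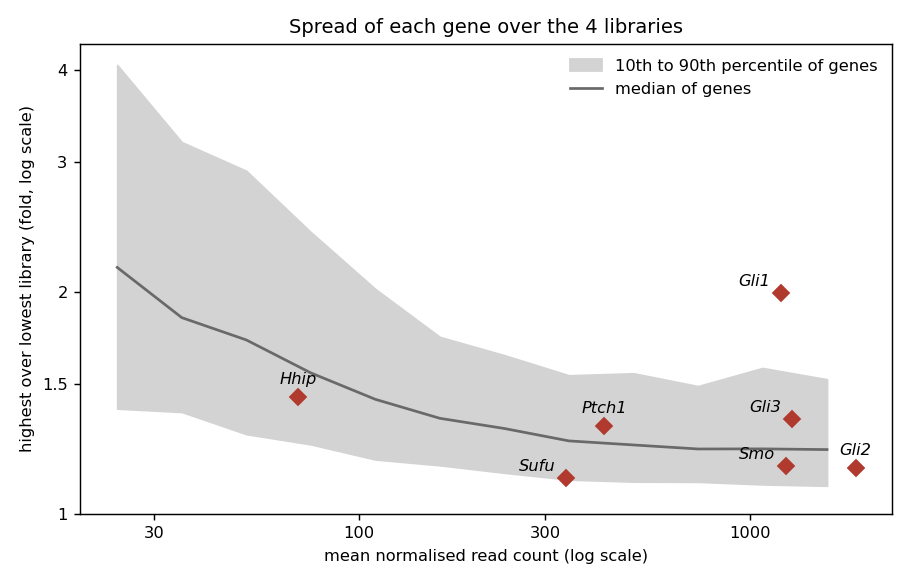
Fold between the highest and the lowest library (vertical axis, log scale) against the mean normalised read count (horizontal axis, log scale), for 7 Hedgehog genes as diamonds, with the median and the 10th to 90th percentile of recovered genes as a line and a grey band. Gli1, at 1.99, lies above the band, and Shh is not drawn because 2 libraries held no read.

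Longer transcripts give more reads, so levels of different genes were compared per kb of exon. In this order Smo came first with a mean normalised count of 328 per kb, followed by Gli1 with 317, Gli2 with 271, Gli3 with 133, Ptch1 with 64.6, Sufu with 48.8, Hhip with 14.3 and Shh with 0.603. Smo and Gli1 could not be ordered, since Smo was the higher in 2 of 4 libraries. Gli1 exceeded Gli2 in 3 libraries, with ratios from 0.822 to 1.43, and these neighbours could not be ordered either. Gli2 was above Gli3 in all 4 libraries with intervals apart, by 1.63 to 2.43-fold, and Gli3 above Ptch1 likewise, by 1.62 to 2.39-fold. Ptch1 was above Sufu in all 4, by 1.13 to 1.44-fold, with intervals apart in 3, and with coding length in place of exon length Sufu ranked above Ptch1 and Gli2 above Gli1. Sufu was above Hhip by 2.92 to 4.10-fold.

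A wider pathway list held 46 genes, the members included. Of these genes 45 had reads, 37 had a mean of 50 or more and 4 had a mean under 10, with a median of 428. Beside this, 10342 of all 17044 genes with reads had a mean of 50 or more and 4353 a mean under 10, with a median of 117. All 3 ligands were low. Ihh, Indian hedgehog, had a mean of 3.70 from 2, 9, 4 and 1 reads in A, B, C and D. Dhh, Desert hedgehog, which Schwann cells are known to make, had a mean of 13.8 from 18, 11, 25 and 4 reads. Among genes that prepare or release ligand, Scube2, a secreted protein that helps ligand leave the cell, was highest at 512, Disp1, the Dispatched transporter, had 215 and Hhat, which attaches palmitate to the ligand, had 72.7.

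Boc, Gas1 and Cdon are co-receptors that present ligand to Patched, and Boc and Gas1 had the highest levels per kb of the pathway list. Boc had a mean of 4183, or 939 per kb, Gas1 had 2129, or 719 per kb, and Cdon had 2007, or 260 per kb, so that all 3 exceeded Ptch1 at 64.6 per kb. Their means lie above 1900, and their reads in single libraries were not worked back.

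Among the membrane partners of Smoothened, Gpr161, a ciliary receptor that restrains the pathway through protein kinase A, had normalised counts of 1019 in A, 540.4 in B, 574 in C and 691 in D. A was its highest library and B its lowest, 1.89-fold apart. Evc and Evc2, which hold Smoothened at the base of the cilium, had means of 264 and 591.

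All 10 intracellular regulators were detected. The highest was Csnk1a1, a casein kinase that phosphorylates GLI proteins, with a mean of 4539, and the lowest was Stk36, the Fused kinase, with 47.8. Kif7, a ciliary kinesin that acts with Sufu, had a mean of 333, or 73.7 per kb of exon against 48.8 for Sufu. Its normalised counts were 268 in A, 344 in B, 366 in C and 355 in D. The 7 cilium genes had means from 103 for Rab23 to 3266 for Arl13b.

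Of 8 further genes known as Hedgehog targets in various tissues, Ccnd2, encoding cyclin D2, was highest with a mean of 1856, and Foxl1 had 0 reads in every library. Foxf1, like Foxl1 a target in mesenchyme, had a mean of 2.46. Ccnd1, encoding cyclin D1, had normalised counts of 698 in A, 1191 in B, 1026 in C and 1090 in D, with A lowest and B highest. Foxm1, a cell cycle transcription factor, had 78.4, 190.0, 140 and 110.3 in A to D, again with A lowest and B highest. Mycn had 16.98, 38.2, 25.9 and 67.0, with A lowest and D highest. The other targets worked back ran in other orders. Bmi1, a Polycomb gene, had 562, 706, 598 and 543, lowest in D, Bcl2, an inhibitor of cell death, had 408, 405, 399 and 515, highest in D, and Foxf1 had 6, 1, 4 and 0 reads. Highest in B and lowest in A were 7 of 30 pathway genes recovered with a mean of 50 or more (23.3%), against 11.04% of all 8847 such genes. This counts the order alone, and the order is that of Gli1, which is itself among the 7, so the share is no test. The 7 include Sufu, whose libraries did not stand apart, and Tulp3, whose variance over the libraries was 0.886 times that of counting error.

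**Figure D4:**
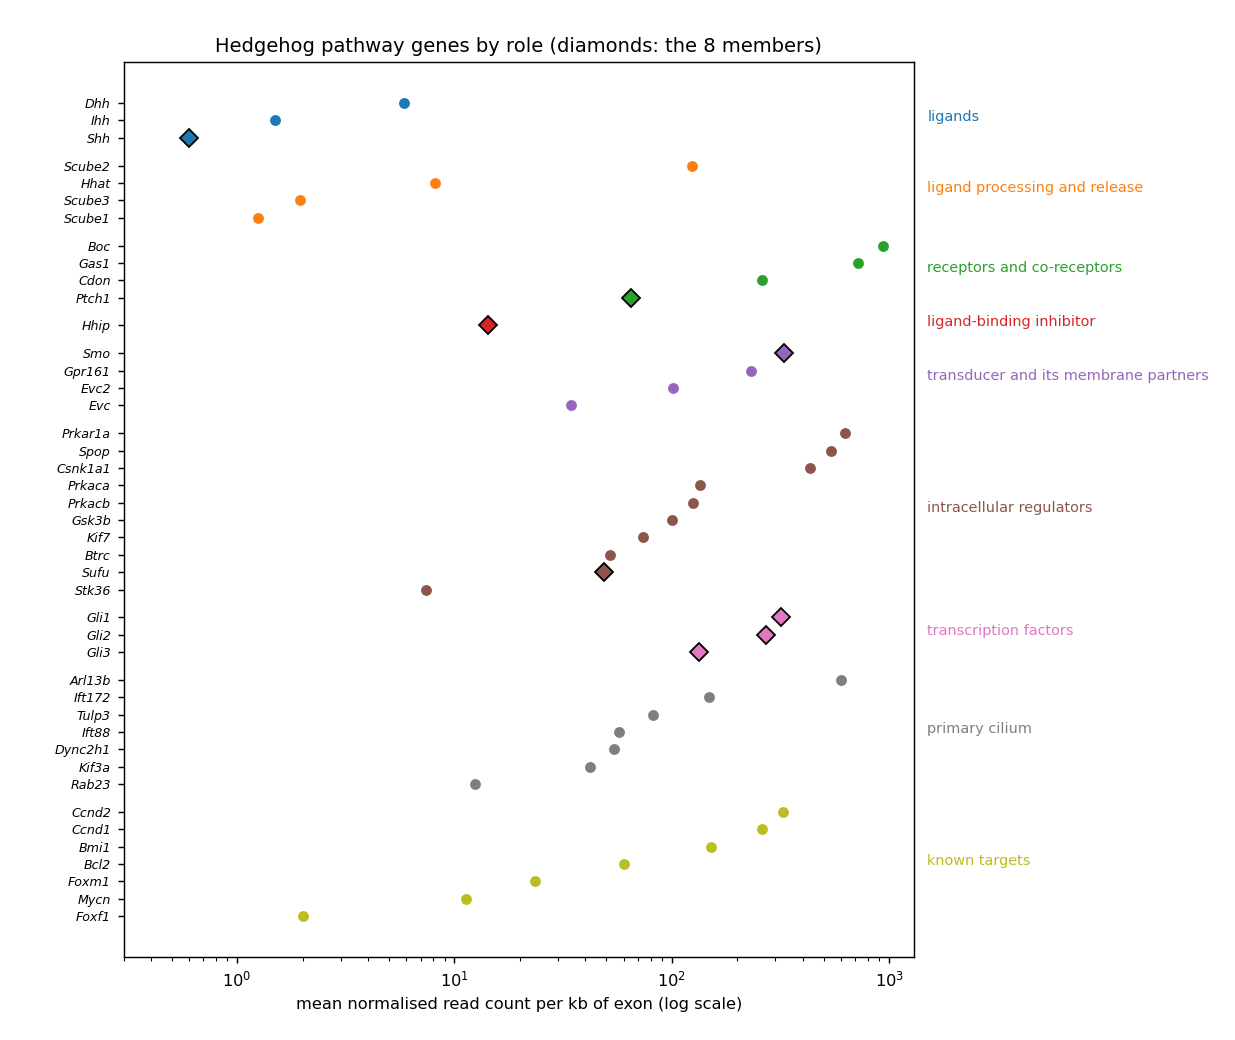
Mean normalised read count per kb of exon (horizontal axis, log scale) of the pathway genes reported here that had reads and a gene model, grouped by role, with the 8 members as outlined diamonds. The ligands lie at the low end, with Shh at 0.603, and the co-receptors Boc and Gas1 at the high end, at 939 and 719.

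The sorted cells carried the markers of their label, and of other skin cells too. All 11 bulge stem cell markers had a mean of 50 or more, led by Krt15 at 119883 and Cd34, used in the sort, at 14575. Of all 17044 genes with reads, 10342 had a mean of 50 or more and 4353 a mean under 10. Among fibroblast markers 5 of 8 had a mean of 50 or more, near that share. Col1a1 was at 5186, but Pdgfra, Pdgfrb and Dpt were at 39.5, 41.2 and 34.8. Of the dermal papilla markers, 5 of 6 had a mean under 10. No marker in the table had a mean of 0. In bulk RNA, fewer cells of a type and less RNA per cell cannot be told apart. Ptch1, Gli1 and Hhip are known to be expressed in dermal cells as well as in follicle epithelium, and these libraries do not say which cells a read came from.

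Markers of other cell types also moved between libraries. Beside the Gli1 values of 797, 1585, 1367 and 1040, the summed normalised counts of 5 recovered myeloid markers out of 6 were 733 in A, 1387 in B, 1171 in C and 663 in D. Much of this sum came from Lyz2, at 234, 769, 523 and 272. Ptprc, Csf1r and Itgam were also highest in B, Itgam with its lowest value in C. Cd207 was lowest in B, at 256, 189, 324 and 205. The summed counts of 4 recovered sebaceous markers out of 5 were 175, 490.3, 347 and 165, and those of 6 melanocyte markers out of 7 were 919, 780, 2190 and 374. Suprabasal markers, 2 recovered out of 5, summed to 538, 736, 1337 and 267. Fibroblast markers, 5 out of 8, summed to 1126, 843, 1172 and 639, and all 6 dermal papilla markers to 407, 493, 383 and 727, nearly all of it from Wif1. Schwann cell markers, 5 of 5, ran from 417 in D to 543 in C, and endothelial markers, 4 of 4, from 69.8 in D to 172 in A. Recovered bulge markers, 4 of 11, summed to 2606, 2212, 2108 and 2636, and no basal epithelial marker of 6 could be worked back. These sums leave out the markers not worked back, which are often the most abundant of their list. Of the summed means, Cd74 held 2744 of 3733 in the myeloid list and Scd1 3085 of 3379 in the sebaceous list. Mitf held 2024 of 3090 in the melanocyte list, Krt10 7246 of 9999 in the suprabasal and Col1a1 5186 of 14227 in the fibroblast list. The part of these cells in the Gli1 values was not tested.

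The transgene encodes miR-205, and a microRNA commonly represses transcripts whose 3′UTR pairs with its seed, bases 2 to 8. The mature miR-205-5p is shown with its seed in capitals (RefSeq, GRCm38.p6, chr1:193507503-193507524, minus strand), because it defines the site that was sought.
mmu-miR-205-5p: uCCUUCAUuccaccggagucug

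The site that pairs with the seed is ATGAAGG. None of the 8 Hedgehog members held it in its longest annotated 3′UTR (GENCODE vM1), where 1766 of 15132 genes with reads and a 3′UTR did (11.7%). The 3′UTRs of the members ran from 158 bases for Gli1 to 3245 for Gli3. A shorter match to bases 2 to 7, TGAAGG, was found once each in Ptch1, Sufu and Gli2, 3 of 8 members, against 36.4% of all genes. These sites are shown with the 6 matching bases in capitals, since they are the matches that the members hold. In Sufu an A follows, which can pair with the first base of miR-205, so that this match extends to 7 bases, and such matches were not counted over all genes. With the shortest annotated 3′UTR of each gene, 1 of 8 members held the 6 bases, against 23.1% of all genes, and the sites of Sufu and Gli2 were not in it.
Ptch1: acctatttcacTGAAGGtctatattcgag
Sufu: aaattggccttTGAAGGaatggctcgatc
Gli2: gagcggaaggtTGAAGGcattgattcttg

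They lie on NCBIM37 at chr13:63611320-63611325 for Ptch1 on the minus strand, chr19:46561780-46561785 for Sufu on the plus strand and chr1:120731312-120731317 for Gli2 on the minus strand. Each is in the 3′UTR and in the last exon of its transcript model.

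In the wider pathway, 4 of 44 genes with a 3′UTR held ATGAAGG, namely Kif7, Ccnd2, Bcl2 and Dync2h1. In Kif7 and Ccnd2 an A follows the match, which makes 8 bases, as in 4.203% of all genes. The sites of Kif7, Ccnd2 and Bcl2 are shown with the matching bases in capitals, for comparison with the shorter matches of the members.
Kif7: gttttgcttctATGAAGGAcagtccttac
Ccnd2: tgaaacattgaATGAAGGAagctgacaca
Bcl2: ttgtcgggcccATGAAGGctctgatctga

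All 3 lie on the minus strand of NCBIM37 in the 3′UTR and last exon, at chr7:86843361-86843368 for Kif7, chr6:127077279-127077286 for Ccnd2 and chr1:108436043-108436049 for Bcl2. The 2 matches in Dync2h1 lie in exons 21 and 23 of a model with 36 exons, annotated as 3′UTR in that transcript, and its shortest 3′UTR held none. A match is a description of the sequence and does not show that miR-205 acts on the transcript. The paper lists Ccnd2 among cytoskeleton and adhesion transcripts that it captured bound to miR-205. Whether the captured site is the one shown here was not checked.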

How the data were processed

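RNA from sorted HF-SCs of 2 control and 2 miR-205 inducible samples was sequenced by the authors. According to the methods and the submitters' processing notes, reads were aligned with HISAT2 2.1.0 to a mouse genome written as NCBI37/mm10, which are different builds, then converted with SAMtools 1.3.1, counted per gene with HTSeq and compared with DESeq2. The annotation counted is not given in the sources used here. The column used, a deposited signal, is the mean over the 4 libraries of counts that the authors divided by size factors. The log2 fold change, its standard error, the statistic and the p-values of the authors' comparison were not used, and there were 0 columns of per-sample values.

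The 4 means that are no sum of smaller ones gave the worth of 1 read in each library. Every set of whole reads in 4 libraries that gives a gene's mean to within 0.5 of its last digit was then listed, for means up to 1900. Where several sets were found, the only one with libraries no more than 8.09-fold apart was taken, the 99.9 percentile among better-counted genes with 1 set. Reads recovered were 5039944, 4621017, 3779474 and 2855029 in A, B, C and D. Size factors recomputed from them by the median of ratios differed by at most 1.30% from those found. The procedure was tested on simulated data with known reads, where the right set was found for 99.9% of 14175 genes with a mean up to 1000 and for 83.1% of 361 above it.

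With libraries unlabelled, no groups were compared. Exon, coding and 3′UTR lengths came from GENCODE vM1 on NCBIM37, where 95.0% of genes with reads had a model, matched by symbol or RefSeq synonym. Disp1 had none. Sites were searched on the transcript strand, and each was checked against the genome. The genes named are the 8 members, and the pathway and marker lists were written from textbook knowledge. Members and lists were chosen with earlier results of these data known. The values of 1 gene of the pathway list are not reported here. Python 3.11.15, numpy 2.4.6, scipy 1.17.1, numba 0.67.0 and matplotlib 3.10.9 were used.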

Additional observations from a re-analysis of the deposited data

How the results depend on the processing

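No paired analysis was possible because the 4 recovered libraries carry no group and no replicate number. For the same reason no group of replicates was compared, and a test of induced against control cells, with or without the replicate block, was not run. Depth limits Shh, with 7 reads in all, and genes with a mean over 1900 have no value by library here. The level of each member moved by less than 1 SD over the 4 libraries when the total of recovered reads replaced the size factors (8 of 8). With 1 library left out the mean of Gli1 ran from 1068 to 1331 and that of Shh from 1.03, without B, to 2.17. With the longest transcript as length the order of the members per kb was the same, and with coding length Gli2 came at rank 2, Gli1 at 3, Sufu at 5 and Ptch1 at 6.

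The percentile among all genes falls, by construction, when low genes are left out. Over genes with a mean over 10 it was 62.1 for Ptch1, 84.5 for Smo, 84.0 for Gli1, 90.1 for Gli2, 85.1 for Gli3, 23.8 for Hhip and 56.6 for Sufu. Over genes with a mean over 50 these were 53.5, 81.0, 80.4, 87.9, 81.7, 6.45 and 46.8. Shh could not be placed under either limit. Per kb of exon the percentile was 59.2 for Ptch1, 86.2 for Gli2, 74.0 for Gli3, 35.9 for Hhip and 53.6 for Sufu. The number of genes with a miR-205 seed match went from 0 to 3 of the members with 6 bases, and from 4 to 19 in the pathway list with 6 bases and to 2 with 8 bases. With the shortest 3′UTR, 7 bases gave 0 members and 3 pathway genes, and 6 bases gave 1 member and 11 pathway genes.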

Other observations

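Genes of the wider pathway differed in how far they ranged over the 4 libraries. Spop, an adaptor that targets GLI proteins for degradation, had normalised counts of 2056 in A, 1405 in B, 1572 in C and 1776 in D. Its range was 1.46-fold with A the highest, and its variance over the libraries was 54.5 times that of counting error. Tulp3, which carries receptors into the cilium, was among the steadiest, at 526, 572, 538 and 558, with a variance 0.886 times that of counting error. Scube1, a secreted relative of Scube2, had 16, 3, 20 and 4 reads in A to D. Scube3 had 13, 19, 14 and 19 reads.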
